A study of Homo sapiens with 34 samples.

Results

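The genes examined encode antibody targets on B-cell lymphoma and number 7 of 31975 in the deposited table: MS4A1 (CD20), CD22, CD52, CD70, CD74, CD24 and TNFRSF8 (CD30). They were chosen by gene name, and each was found in 1 row of the table. RNA sequencing of 34 established human lymphoma cell lines, with a library for each, gave the values. The labels put 11 of them under mantle cell lymphoma (MCL), a CD5-positive mature B-cell tumour, and 3 under Burkitt lymphoma (BL). Diffuse large B-cell lymphoma (DLBCL) made up the rest, with 6 lines of its activated B-cell form (ABC DLBCL) and 14 of its germinal centre form (GCB DLBCL). No line carried a treatment in the labels, and no time or dose was given. The series was set up around radioligands for the chemokine receptor CXCR4 in MCL, and the question taken here is how evenly other antibody targets were transcribed across the same lines.

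Naked antibodies, antibody-drug conjugates, radioimmunoconjugates and engineered T cells all rely on a surface antigen that the tumour cell still makes, so loss of the antigen is a known route of escape. CD20, a membrane protein tied to calcium flux, and CD22, a sialic acid-binding lectin that dampens B-cell receptor signalling, mark mature B cells. CD52 is a short glycosylphosphatidylinositol-anchored glycoprotein, CD24 a mucin-like anchored glycoprotein, and CD74 the invariant chain that chaperones HLA class II molecules. CD70 is the ligand of CD27, and CD30 is a receptor of the tumour necrosis factor family best known from Hodgkin and anaplastic large cell lymphoma. RNA does not report protein at the surface, and these libraries carried no measurement of it.

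Values are given on 2 scales. The authors' variance-stabilised value is on a log2 scale with 4.55 for a gene without a read, and differences near that value are compressed, so they understate the ratio of reads. Reads were recovered from it and are given per 1e6 reads of the library (RPM). The 2 scales also adjust libraries differently. At 163 RPM of CD22 each, the log2 value was 13.29 in JVM2 and 12.25 in HBL-2. Tests and correlations use the log2 value unless stated. Different lines stand as the replicates of a pathology and none was sequenced in replicate here. A p-value thus sets a difference in means against the variation between lines, which includes differences between their libraries. The genes differ in transcript length, and no level is compared between genes.

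Recovered depth, in M reads (1e6), ran over 60.1 to 109 for MCL, 22.6 to 92.4 for BL, 22.7 to 165 for ABC DLBCL and 2.55 to 108 for GCB DLBCL. The libraries fell into 2 classes. In 25 libraries ZNF593 had 444 to 6561 reads and EMC6 554 to 5583, and in the other 9, called second class here, both genes had 0 reads. The second class held 8 GCB DLBCL lines of 2.55 to 4.84 M reads and the ABC DLBCL line NU-DUL-1, so pathology and library class are partly confounded, and comparisons with GCB DLBCL are given with and without it. The B-cell markers CD79A, CD79B, PAX5, BLNK and POU2AF1 exceeded 10 RPM in all 34 lines, while EBF1 was at 0.643 RPM in Pfeiffer. Markers of T and NK cells summed to 0.194 to 137 RPM in MCL, 0.0974 to 0.665 in BL, 0.132 to 1.89 in ABC DLBCL and 0 to 702 in GCB DLBCL, with the highest sum in Pfeiffer, where CD8A had 699 RPM. Myeloid markers summed to at most 12.1 RPM in any line. Markers of stroma and epithelium summed to 1.18 to 52.3 RPM in MCL, 0.0677 to 4.35 in BL, 0.263 to 74.0 in ABC DLBCL and 0 to 216 in GCB DLBCL, the highest again in Pfeiffer. CD7 (1.96, limma adjusted p = 0.023) and KRT18 (1.57, 0.040) from these lists rose in MCL against the other pathologies and did not pass in the first class (0.097 and 0.15). Their part in the results on antigens was not tested.

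The stretches around 3 transcription starts are shown because they belong to the genes the results turn on: CD74, whose level moved with HLA class II genes, and CD52 and TNFRSF8, each without a read in at least 1 line. They are RefSeq windows on GRCh38.p14, from 250 bases before to 50 bases after the start, 5′ to 3′ on the gene's strand. Capitals mark matches on either strand to 4 motifs: the CCAAT box (CCAAT), the AP-1 site (TGAGTCA), a kappaB-like site (GGG, any 3 bases, TTCC) and the octamer (ATGCAAAT). None of these 4 motifs overlaps another in the windows shown.
CD74, chr5:150412861-150413160, minus strand: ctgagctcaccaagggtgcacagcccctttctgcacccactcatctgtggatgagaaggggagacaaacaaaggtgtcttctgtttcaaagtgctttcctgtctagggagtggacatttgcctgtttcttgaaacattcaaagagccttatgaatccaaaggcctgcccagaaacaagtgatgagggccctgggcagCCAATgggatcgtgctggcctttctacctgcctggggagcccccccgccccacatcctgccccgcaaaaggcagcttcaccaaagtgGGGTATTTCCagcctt
CD52, chr1:26317708-26318007, plus strand: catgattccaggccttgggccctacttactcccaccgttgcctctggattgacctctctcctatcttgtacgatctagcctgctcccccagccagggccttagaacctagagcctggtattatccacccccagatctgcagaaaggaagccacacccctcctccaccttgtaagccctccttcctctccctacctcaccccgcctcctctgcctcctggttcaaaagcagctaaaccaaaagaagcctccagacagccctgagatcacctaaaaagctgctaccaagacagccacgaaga
TNFRSF8, chr1:12063053-12063352, plus strand: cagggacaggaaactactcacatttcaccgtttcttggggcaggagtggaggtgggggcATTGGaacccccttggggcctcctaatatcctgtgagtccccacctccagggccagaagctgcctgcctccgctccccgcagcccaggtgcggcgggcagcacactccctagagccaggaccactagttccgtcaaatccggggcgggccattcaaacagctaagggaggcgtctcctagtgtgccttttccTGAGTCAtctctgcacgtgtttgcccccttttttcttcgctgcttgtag
The CD74 window held a CCAAT box 53 bases before the start and a kappaB-like match, GGGTATTTCC, 34 bases after it. The TNFRSF8 window held a CCAAT box on the reverse strand 191 bases before the start and an AP-1 match 1 base after it. The CD52 window held none of the 4. Of 35116 such windows, 34.6% held a CCAAT box, 4.95% an AP-1 site, 6.52% a kappaB-like site and 1.77% the octamer, and a match is a description of letters only.

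A target was taken as lacking where a line had under 1 RPM. By that measure MS4A1, CD22, CD70 and CD74 were lacking in 0 of 34 lines, CD52 in 1, CD24 in 2 and TNFRSF8 in 20. In 12 lines all 7 targets were at or above 1 RPM, 21 lines lacked 1 target, and Raji lacked 2. These counts take RPM as read. Exact 95% binomial intervals reached above 1 RPM for CD24 in Raji and CD52 in DOHH-2. The same held for TNFRSF8 in SU-DHL-6, WSU-DLCL2, OCI-Ly7 and SP-49. MS4A1, CD22 and CD74 together were at or above 10 RPM in 34 lines, at or above 50 RPM in 30 and at or above 100 RPM in 27. The 4 lines below 50 RPM for at least 1 of the 3 were Jeko-1, Mino and Z-138, all of MCL and all through CD22, and HT, of GCB DLBCL, through MS4A1. With the threshold at 10 RPM, CD52 was under it in DOHH-2 and Toledo, CD70 in NU-DUL-1, and CD24 in JVM2, Raji, HBL-1, HT, SU-DHL-4 and WSU-DLCL2.

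**Figure D1:**
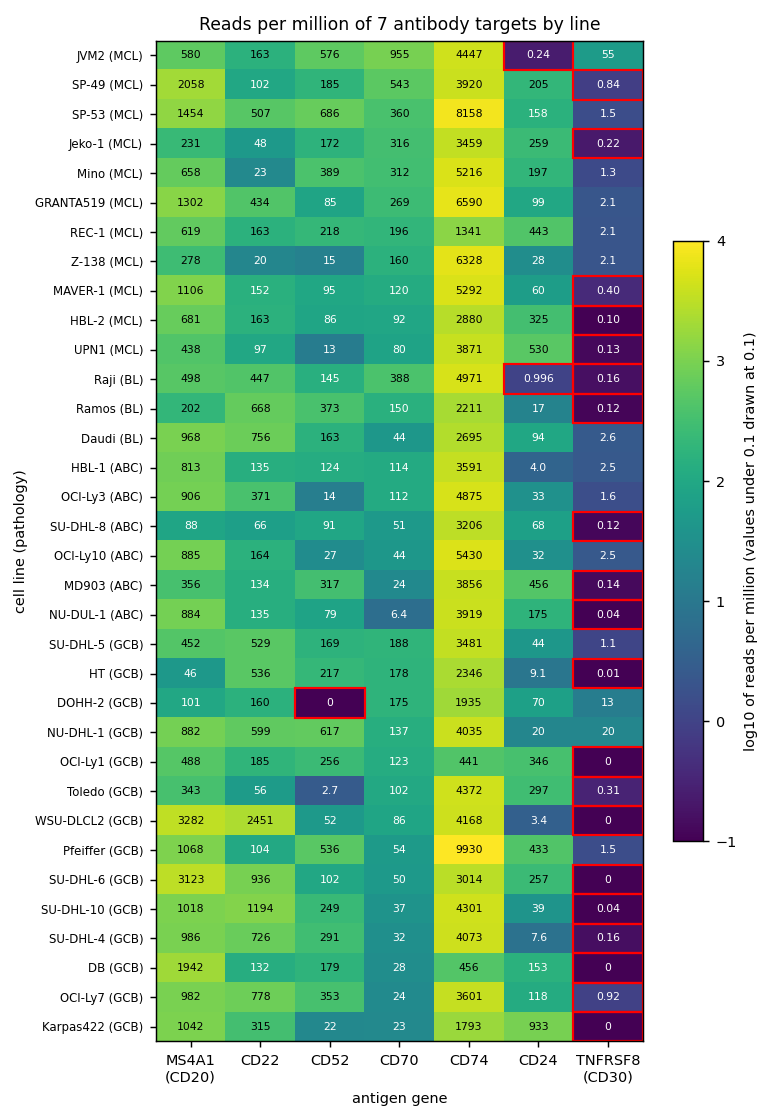
RPM of 7 antibody targets (columns) in 34 cell lines (rows, grouped as MCL, BL, ABC and GCB DLBCL, and ordered by CD70 within a pathology). Colour gives the log10 of RPM, the printed number the value, and red boxes the lines under 1 RPM: 20 for TNFRSF8, 2 for CD24 and 1 for CD52.

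All 7 genes varied between lines more than most. The SD of the log2 value over 34 lines was 2.35 for CD24, 2.24 for CD52, 1.64 for CD70, 1.58 for CD22, 1.56 for TNFRSF8, 1.35 for MS4A1 and 1.08 for CD74, against a median of 0.70 over the 22167 genes tested. Over the 25 first-class lines the SD of CD74 was 0.676, against a median of 0.592, and that of the other 6 was 1.27 or more. Over 34 lines the share of tested genes with a smaller SD ran from 76.9% for CD74 to 97.7% for CD24. Among genes of like mean, within 1 log2 unit, the share was 78.0% for CD74 (41 genes), 90.4% for MS4A1 (251 genes) and 98.7% for CD24 (3925 genes). These shares are descriptions over genes, which are not independent.

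MS4A1, the target of rituximab, lies on chromosome 11 (11:60455847-60470752, ENSG00000156738) and was read in every line. It had 231 RPM in the lowest MCL line (Jeko-1), a median of 658 and 2058 in the highest (SP-49). The BL lines Ramos, Raji and Daudi had 202, 498 and 968 RPM. In ABC DLBCL it ran over 88.2 (SU-DHL-8), 848 and 906 RPM (OCI-Ly3), and in GCB DLBCL over 46.0 (HT), 984 and 3282 RPM (WSU-DLCL2), each as lowest, median and highest. The pathologies overlapped throughout: in 34 lines the range was 71.4-fold, and the lines at either end, HT and WSU-DLCL2, were both GCB DLBCL. The log2 value averaged 14.73 ± 0.94 in MCL (SD, n = 11), 14.08 ± 0.94 in BL (n = 3), 14.31 ± 1.40 in ABC DLBCL (n = 6) and 14.53 ± 1.71 in GCB DLBCL (n = 14). No neighbours in the order MCL, GCB DLBCL, ABC DLBCL and BL differed beyond their spread. MCL minus GCB DLBCL was 0.20 with a 95% interval of -0.88 to 1.29, and MCL minus the mean of the other 3 pathologies was 0.42 with an interval of -0.64 to 1.49. Intervals of this width do not show that the levels are alike.

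CD22, the target of inotuzumab ozogamicin and moxetumomab, lies on chromosome 19 (19:35329187-35347361, ENSG00000012124) and was lower in MCL than in GCB DLBCL. It had 19.6 RPM in the lowest MCL line (Z-138), a median of 152 and 507 in the highest (SP-53). The BL lines Raji, Ramos and Daudi had 447, 668 and 756 RPM. ABC DLBCL ran over 65.9 (SU-DHL-8), 135 and 371 RPM (OCI-Ly3), and GCB DLBCL over 55.6 (Toledo), 532.5 and 2451 RPM (WSU-DLCL2). On the log2 scale all 11 MCL lines lay below the GCB DLBCL median and below each of the 3 BL lines, and the 3 BL lines lay above all 6 ABC DLBCL lines. The share of all genes that separate as fully is not given here. With 3 BL lines, neither difference from BL passed (limma adjusted p = 0.20 for MCL and 0.56 for ABC DLBCL). MCL overlapped with ABC and with GCB DLBCL.

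The log2 value of CD22 averaged 12.10 ± 1.49 in MCL (SD, n = 11), 14.49 ± 0.24 in BL (n = 3), 12.51 ± 0.89 in ABC DLBCL (n = 6) and 13.69 ± 1.58 in GCB DLBCL (n = 14). CD22 fell by 1.59 ± 0.53 in MCL against GCB DLBCL (difference ± SE, limma adjusted p = 0.030), in a comparison that called 23.7% of all genes tested. It was 1 of 2 antigens of 7 called there, a share close to that of all genes. Within first-class libraries the difference was -1.57, about the same, but did not pass (limma adjusted p = 0.21). By RPM the MCL line SP-53 exceeded the BL line Raji, while on the log2 scale it lay just below it, at 14.25 against 14.27. Against BL the difference of -2.39 ± 0.86 did not pass (limma adjusted p = 0.20), in a comparison that called 1.17% of genes and had 3 BL lines. BL minus ABC DLBCL was 1.97 ± 0.94 (limma adjusted p = 0.56). In bulk RNA, fewer cells with a transcript and less of it per cell cannot be told apart.

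Within MCL, CD22 ranged 25.9-fold, and the widest gap in the order of all 34 lines (1.10 log2 units) lay between Mino, at 9.90, and Toledo, at 11.01, so that Z-138 and Mino stood below the rest. Both lines kept MS4A1, at 278 RPM in Z-138 and 658 in Mino, though of the MCL lines only Jeko-1 (231 RPM) was below Z-138. At the other end WSU-DLCL2 had the highest values of both CD22 and MS4A1. Over the 25 first-class lines the 2 genes had a Pearson r of 0.19, over all 34 lines 0.33, and over the 11 MCL lines 0.64. These values, like all correlations below, describe lines that share a processing run and differ in depth.

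The transcripts of proteins that act with CD22 did not follow its transcript in one way. ST6GAL1 makes the alpha2,6-linked sialic acid that CD22 binds, and its r with CD22 was 0.61 over the 25 first-class lines and 0.50 over 34. LYN, the kinase that phosphorylates CD22, had an r of 0.12 and 0.14. PTPN6 encodes SHP-1, the phosphatase that CD22 recruits, and had an r of -0.18 and -0.04. PTPN6 ran over 103 (MAVER-1), 387 and 1244 RPM (SP-53) in MCL, against 6.202, 23.4 and 41.7 RPM in the BL lines Daudi, Ramos and Raji, 16.1 to 363 RPM in ABC DLBCL and 0.736 to 904 RPM in GCB DLBCL. It rose by 3.08 ± 0.76 in MCL against the mean of the other pathologies (limma adjusted p = 0.014), and by 2.82 within the first class (0.0071). CD22 in the same comparison was -1.47 ± 0.52 and did not pass (limma adjusted p = 0.10), but passed with median centring (-1.73, limma adjusted p = 0.040).

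**Figure D2:**
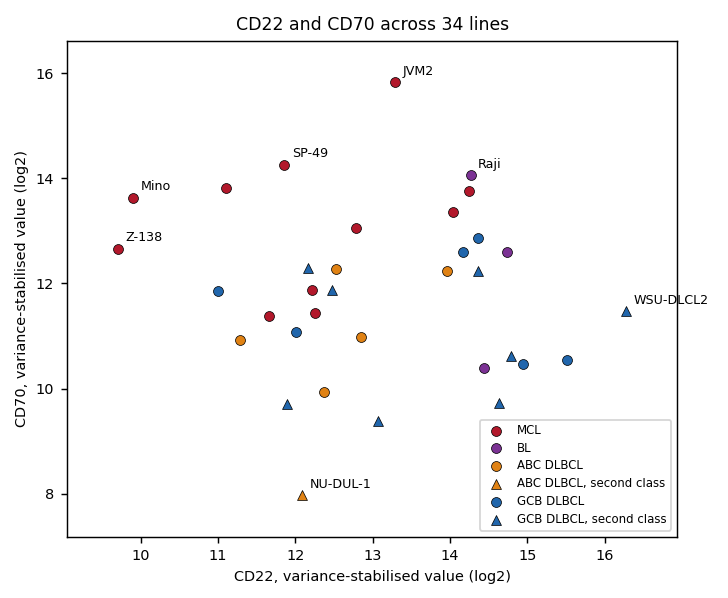
Variance-stabilised log2 value of CD70 against that of CD22 in 34 cell lines, coloured by pathology, with triangles for second-class libraries. JVM2 is highest in CD70 at 15.83, Z-138 lowest in CD22 at 9.71, and WSU-DLCL2 highest in CD22 at 16.28.

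CD70, the ligand of CD27 and the target of cusatuzumab and of CD70-directed conjugates, lies on chromosome 19 (19:6581648-6591150, ENSG00000125726) and was the antigen with the clearest difference in MCL. It had 79.8 RPM in the lowest MCL line (UPN1), a median of 269 and 955 in the highest (JVM2). The BL lines Daudi, Ramos and Raji had 44.1, 150 and 388 RPM. ABC DLBCL ran over 6.43 (NU-DUL-1), 47.7 and 114 RPM (HBL-1), and GCB DLBCL over 22.7 (Karpas422), 70.0 and 188 RPM (SU-DHL-5). On the log2 scale all 11 MCL lines lay above the median of the 23 other lines; 7 lay above every GCB DLBCL line and 8 above every ABC DLBCL line. Raji reached the upper MCL range, so MCL and BL overlapped.

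The log2 value of CD70 averaged 13.19 ± 1.32 in MCL (SD, n = 11), 12.35 ± 1.85 in BL (n = 3), 10.72 ± 1.62 in ABC DLBCL (n = 6) and 11.19 ± 1.14 in GCB DLBCL (n = 14). CD70 rose by 1.99 ± 0.52 in MCL against GCB DLBCL (limma adjusted p = 0.0078). Against the mean of the other 3 pathologies it rose by 1.76 ± 0.50 (limma adjusted p = 0.036), the 1 call among the 7 antigens where 4.46% of all genes were called. Against ABC DLBCL the difference was the largest in size, 2.46 ± 0.65, and did not pass (limma adjusted p = 0.064). Against BL it was 0.84 ± 0.83 (limma adjusted p = 0.89), with -0.14 when Daudi was left out and 1.69 when Raji was. Across the 4 pathologies the F statistic was 6.93 (limma adjusted p = 0.018), where 13.2% of genes were called, and CD70 was again the 1 antigen of 7 to pass.

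The calls for CD70 depended on the libraries kept. Within the first class MCL minus GCB DLBCL was 1.62 (limma adjusted p = 0.15) and MCL minus the other pathologies 1.46 (0.087), so both kept their direction and neither passed. The F statistic did not pass there either (3.99, limma adjusted p = 0.15), nor with library class as a covariate (4.43, 0.14) or without libraries under 10 M reads (5.04, 0.0997). In the first class 9 of 11 MCL lines lay above the GCB DLBCL median, and all 6 GCB DLBCL lines lay below the MCL median. With any 1 of the 34 lines left out, the difference from GCB DLBCL stayed between 1.73 and 2.17 and passed each time. The difference from the other pathologies stayed between 1.44 and 2.05 and no longer passed without NU-DUL-1, GRANTA519, Jeko-1, JVM2, Mino, SP-49, SP-53, Ramos or Daudi.

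CD27, the receptor of CD70, followed it only loosely when the lines of all pathologies were pooled. CD27 had 0.230 to 407 RPM in MCL, with a median of 38.5, and 143, 297 and 462 RPM in the BL lines Daudi, Ramos and Raji. It had 0.103 to 8.39 RPM in ABC DLBCL and 0.267 to 335 RPM in GCB DLBCL. Its r with CD70 was 0.25 over the 25 first-class lines and 0.28 over 34. These pool pathologies that differ in CD27, and the r within MCL alone is not given here. JVM2, the line highest in CD70, had 72.4 RPM of CD27, and Raji was highest of all lines in CD27 and the third in CD70.

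**Figure D3:**
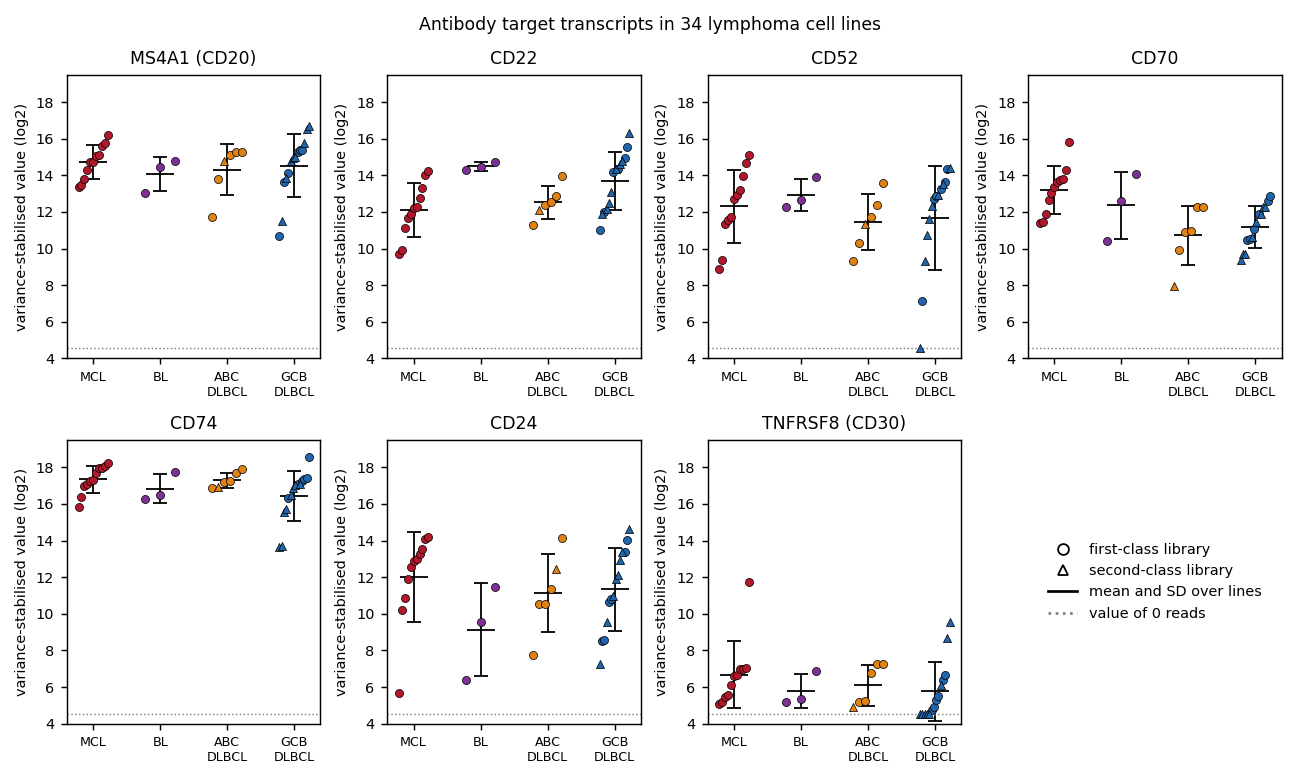
Variance-stabilised log2 value of each antigen gene in each line, by pathology in the order MCL, BL, ABC DLBCL and GCB DLBCL, with circles for first-class and triangles for second-class libraries, bars for mean and SD over lines, and a dotted line at 4.55, the value of 0 reads. In MCL the mean of CD22 is below that of GCB DLBCL and the mean of CD70 above it, and TNFRSF8 sits near the dotted line in all but a few lines.

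CD74, the target of milatuzumab, lies on chromosome 5 (5:150401639-150412910, ENSG00000019582). It had 1341 RPM in the lowest MCL line (REC-1), a median of 4447 and 8158 in the highest (SP-53). The BL lines Ramos, Daudi and Raji had 2211, 2695 and 4971 RPM. ABC DLBCL was narrow, over 3206 (SU-DHL-8), 3887 and 5430 RPM (OCI-Ly10), and GCB DLBCL was wide, over 441 (OCI-Ly1), 3541 and 9930 RPM (Pfeiffer). No line lacked it, and OCI-Ly1 and DB, at 441 and 456 RPM, stood apart at the low end by a gap of 1.86 log2 units.

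The log2 value of CD74 averaged 17.34 ± 0.75 in MCL (SD, n = 11), 16.83 ± 0.80 in BL (n = 3), 17.30 ± 0.41 in ABC DLBCL (n = 6) and 16.44 ± 1.38 in GCB DLBCL (n = 14). MCL minus GCB DLBCL was 0.90 ± 0.41 (limma adjusted p = 0.10). It passed without Pfeiffer (1.06, limma adjusted p = 0.041) and was 0.006 within the first class. In GCB DLBCL itself CD74 was lower in the second class, at 15.77 ± 1.40 (SD, n = 8), than in the first, at 17.33 ± 0.73 (SD, n = 6), a difference of -1.56 (exact permutation test, two-sided, p = 0.025, with the class comparison added after seeing the data). The other 6 antigens gave exact permutation p-values of 0.30 to 0.96 in this comparison, and the p-values are not adjusted for the 7 tests. Library class and the line's own level cannot be told apart here.

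The 3 lines lowest in CD74 by RPM were also the 3 lowest in HLA-DRA, an HLA class II chain that CD74 chaperones. OCI-Ly1, DB and REC-1 had 0, 1.96 and 0.179 RPM of HLA-DRA, against 59.4 to 6275 RPM in the other 31 lines. HLA-DRB1 in the same 3 lines was at 0, 0.982 and 0.0671 RPM, against at least 24.6 RPM elsewhere. HLA-DPB1 was at 0, 1.72 and 0.134 RPM, against at least 26.4 RPM elsewhere. The other class II genes were less uniform. HLA-DPA1 was at 0 RPM in OCI-Ly1, 59.4 in DB and 0.168 in REC-1, against at least 73.4 RPM elsewhere. DB had 97.2 RPM of HLA-DMA and 56.7 of HLA-DMB, within the range of the other 31 lines, while OCI-Ly1 (4.75 and 1.65) and REC-1 (14.4 and 0.894) lay below it. This grouping was chosen after the values were seen, and on the log2 scale Karpas422 (15.58) and DOHH-2 (15.74) lay just below REC-1 (15.82). OCI-Ly1 and DB are shallow second-class libraries, in which 3 reads correspond to 0.620 and 0.736 RPM, whereas REC-1 is a first-class library of 89.5 M reads.

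CIITA, the master regulator of HLA class II genes, differed among these 3 lines. It was at 2.70 RPM in DB, the lowest of all lines, but at 128 RPM in OCI-Ly1 and 44.9 RPM in REC-1, within the 17.95 to 471 RPM of the other 31 lines. CD74 was thus still read at 441 to 1341 RPM in lines where HLA-DRA was at or under 1.96 RPM. Conversely OCI-Ly10 had the lowest HLA-DRA among the other 31 lines, 59.4 RPM, with 5430 RPM of CD74.

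Over all 34 lines the r of CD74 was 0.86 with HLA-DPB1, 0.83 with HLA-DRB1, 0.80 with HLA-DRA, 0.76 with HLA-DPA1 and 0.44 with CIITA. Over the 31 lines without those 3, it was 0.75, 0.63, 0.53, 0.73 and 0.15 for the same genes. The peptide-editing genes HLA-DMA and HLA-DMB had an r of 0.28 and 0.30 with CD74 in the 31 lines. HLA genes are polymorphic and alike, so reads of some alleles may be split or lost in counting, and a level of 0 for one of them is the level counted. Of the partners at the surface, CD44, the signalling partner of CD74, had an r of 0.28 over the first-class lines and 0.34 over 34.

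MIF, the cytokine ligand of CD74, differed between the library classes. It rose by 3.17 ± 1.08 in MCL against GCB DLBCL (limma adjusted p = 0.033), and within the first class the difference was -0.89 (limma adjusted p = 0.39). It had 120 to 245 RPM in the 6 first-class GCB DLBCL lines and 0 to 2.02 RPM in the 8 of the second class.

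**Figure D4:**
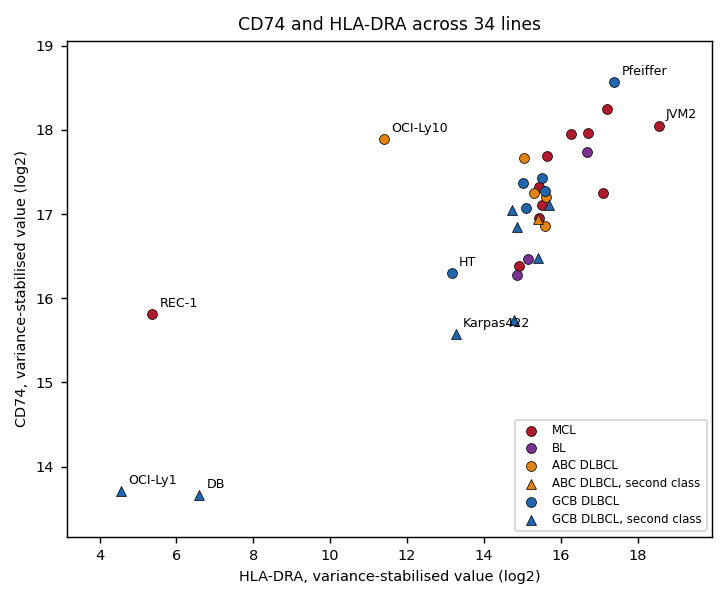
Variance-stabilised log2 value of CD74 against that of HLA-DRA in 34 cell lines, coloured by pathology, with triangles for second-class libraries. OCI-Ly1, DB and REC-1 lie at the left with HLA-DRA at or under 1.96 RPM, and OCI-Ly10 has 59.4 RPM of HLA-DRA with 5430 RPM of CD74.

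CD52, the target of alemtuzumab, lies on chromosome 1 (1:26317958-26320523, ENSG00000169442) and was lacking in 1 line. DOHH-2 had 0 reads of CD52 in 3.18 M, which by 3 reads allows up to 0.943 RPM and by an exact 95% binomial interval up to 1.16 RPM, so it cannot be placed below 1 RPM by that interval. The next line, Toledo, had 2.72 RPM in 86.3 M reads. Both are GCB DLBCL. CD52 had 12.7 RPM in the lowest MCL line (UPN1), a median of 172 and 686 in the highest (SP-53). The BL lines Raji, Daudi and Ramos had 145, 163 and 373 RPM. ABC DLBCL ran over 13.9 (OCI-Ly3), 84.7 and 317 RPM (MD903), and GCB DLBCL over 0 (DOHH-2), 198 and 617 RPM (NU-DHL-1).

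The log2 value of CD52 averaged 12.31 ± 1.995 in MCL (SD, n = 11), 12.93 ± 0.87 in BL (n = 3), 11.44 ± 1.52 in ABC DLBCL (n = 6) and 11.67 ± 2.86 in GCB DLBCL (n = 14). All pathologies overlapped and no neighbours in the order BL, MCL, GCB DLBCL and ABC DLBCL differed beyond their spread. MCL minus GCB DLBCL was 0.64 (95% interval -1.14 to 2.42), and -0.02 within the first class. MCL minus ABC DLBCL was 0.87 (95% interval -1.38 to 3.11). DOHH-2 kept 101 RPM of MS4A1, 160 of CD22 and 175 of CD70, and its 12.9 RPM of TNFRSF8 was the third highest of all lines.

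CD24, the ligand of the inhibitory receptor SIGLEC10, lies on chromosome 6 (6:106969831-106976855, ENSG00000272398) and had the widest spread. CD24 has near-identical copies elsewhere in the genome, so its reads may be split or lost in counting. It had 0.244 RPM in the lowest MCL line (JVM2), a median of 197 and 530 in the highest (UPN1). The BL lines Raji, Ramos and Daudi had 0.996, 17.0 and 93.8 RPM. ABC DLBCL ran over 4.02 (HBL-1), 50.8 and 456 RPM (MD903), and GCB DLBCL over 3.37 (WSU-DLCL2), 93.9 and 933 RPM (Karpas422).

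JVM2 and Raji were the lines under 1 RPM of CD24, and neither was at 0. JVM2 had 16 reads in 65.6 M, an exact 95% binomial interval of 0.139 to 0.396 RPM. Raji had 92 reads in 92.4 M, with an interval of 0.803 to 1.22 RPM, so Raji cannot be placed below the threshold at this depth. WSU-DLCL2, the next line, rested on 10 reads, with an interval of 1.61 to 6.19 RPM. Such intervals cover counting error only.

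The log2 value of CD24 averaged 12.02 ± 2.44 in MCL (SD, n = 11), 9.13 ± 2.55 in BL (n = 3), 11.13 ± 2.14 in ABC DLBCL (n = 6) and 11.33 ± 2.27 in GCB DLBCL (n = 14). Of 11 MCL lines 8 lay above all 3 BL lines and JVM2 lay below all 3. MCL minus BL was 2.89 (95% interval -0.02 to 5.79, limma adjusted p = 0.45), and 1.52 without Raji. MCL minus the other pathologies was 1.49 ± 0.86 (limma adjusted p = 0.38). SIGLEC10 itself was read at 1.59 to 308 RPM in MCL, 9.02 to 43.3 in BL, 0.0246 to 251 in ABC DLBCL and 1.68 to 400 in GCB DLBCL, with an r with CD24 of 0.09 over the 25 first-class lines.

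TNFRSF8, the target of brentuximab vedotin, lies on chromosome 1 (1:12063303-12144207, ENSG00000120949) and was near the limit of detection in most lines. It was under 1 RPM in 5 of 11 MCL, 2 of 3 BL, 3 of 6 ABC DLBCL and 10 of 14 GCB DLBCL lines. Above 10 RPM were JVM2 with 54.8 RPM (MCL) and, both GCB DLBCL of the second class, NU-DHL-1 with 20.02 and DOHH-2 with 12.9 RPM. The next line, Daudi, had 2.57 RPM. The median was 1.34 RPM in MCL, 0.162 in BL, 0.865 in ABC DLBCL and 0.0981 in GCB DLBCL.

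Depth sets how far these low values reach. The 5 lines with 0 reads of TNFRSF8 (DB, Karpas422, OCI-Ly1, SU-DHL-6 and WSU-DLCL2) were all shallow second-class GCB DLBCL libraries, where 0 reads allow up to 0.620 to 1.01 RPM by 3 reads and up to 0.762 to 1.24 RPM by an exact 95% binomial interval. Of the 20 lines under 1 RPM, SU-DHL-6, WSU-DLCL2, OCI-Ly7 and SP-49 had an exact interval that reached above 1 RPM. In deep libraries low levels were counted directly: HT had 1 read in 84.0 M, and Raji 15 reads in 92.4 M. The log2 value averaged 6.67 ± 1.84 in MCL (SD, n = 11), 5.81 ± 0.93 in BL (n = 3), 6.10 ± 1.11 in ABC DLBCL (n = 6) and 5.76 ± 1.60 in GCB DLBCL (n = 14), with overlap throughout. MCL minus GCB DLBCL was 0.90 (95% interval -0.34 to 2.14, limma adjusted p = 0.28), and 0.40 without JVM2. No neighbours in the order MCL, ABC DLBCL, BL and GCB DLBCL differed beyond their spread.

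The ligand of CD30, TNFSF8, had 0 to 14.4 RPM in MCL, 0.206, 76.5 and 176 RPM in the BL lines Raji, Daudi and Ramos, 0 to 1.48 in ABC DLBCL and 0 to 68.6 in GCB DLBCL. Its r with TNFRSF8 was -0.16 over the first-class lines and -0.30 over 34. TRAF1 and TRAF2, adaptors of CD30, had an r of 0.41 and -0.36 over the first-class lines. JVM2 was highest of all lines in TRAF1, at 300.1 RPM, and lowest in TRAF2 by RPM, at 7.32, while on the log2 scale Z-138 was lowest in TRAF2.

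Some correlations between antigens rested on JVM2. JVM2 was highest of 34 lines in CD70 and TNFRSF8 by either scale, highest in CD52 on the log2 scale, and lowest in CD24. The r of CD70 with TNFRSF8 was 0.52 over the 25 first-class lines and 0.22 without JVM2. The r of CD24 with TNFRSF8 was -0.35 and became 0.07 without it. CD22 and CD24 had an r of -0.44 over the first-class lines, -0.47 without JVM2 and -0.45 over 34. MS4A1 and CD74 had an r of 0.47 over the first-class lines, 0.46 without JVM2 and 0.19 over 34. None of the 21 pairs is given a test, and dropping JVM2 was chosen after seeing the data.

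In the comparisons not yet counted, limma called 0 of the 7 antigens. For MCL against ABC DLBCL, where 0.69% of genes were called, 1 antigen (CD70) had an unadjusted p under 0.05. For MCL against BL, with 1.17% of genes called, it was 1 (CD22). For ABC against GCB DLBCL (0.726% called) and for BL against GCB DLBCL (0.153%) it was 0, and for BL against ABC DLBCL (0.117%) it was 1 (CD22). With 3 BL and 6 ABC DLBCL lines the intervals were wide: BL minus GCB DLBCL for CD24 was -2.20 with a 95% interval of -5.04 to 0.63.

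**Figure D5:**
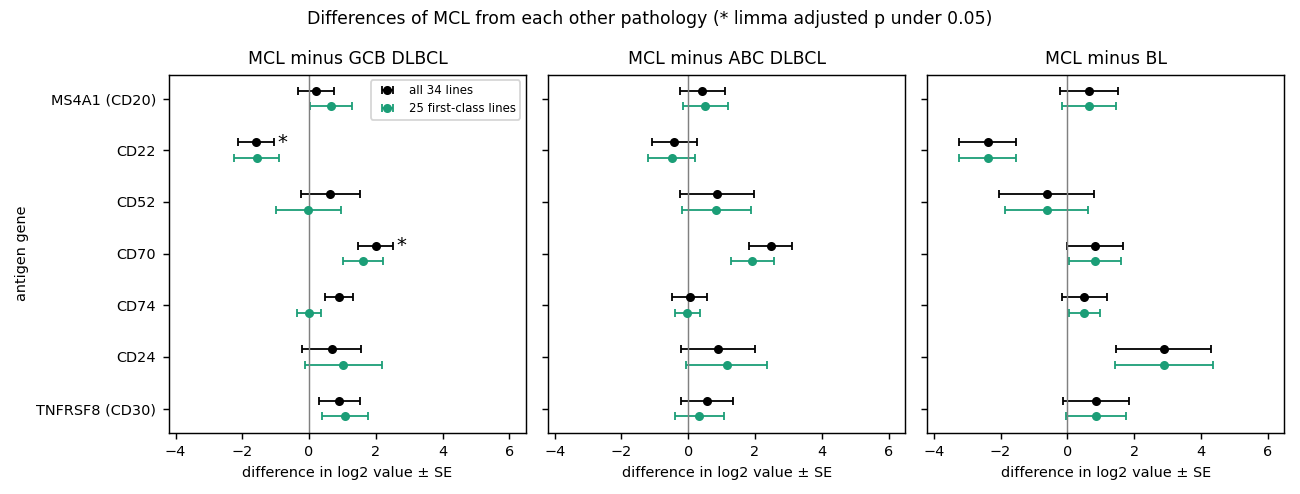
Difference in mean log2 value (± SE, limma) of MCL from GCB DLBCL, ABC DLBCL and BL for the 7 antigen genes, over all 34 lines (black) and over the 25 first-class lines (green), with an asterisk for an adjusted p under 0.05. With all lines CD22 (-1.59) and CD70 (1.99) pass against GCB DLBCL, and over the first-class lines none of the 7 passes in these 3 comparisons.

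The 17 genes of ligands, receptors and adaptors that act with these antigens were set beside them. In MCL against the other pathologies PTPN6 was the 1 of 17 called, a share close to the 4.46% of all genes, and the median difference was -0.08, against -0.01 over all genes tested. The values that did not pass included CD44 (1.96), MIF (1.15), SIGLEC10 (1.12), TNFSF8 (-1.07), TRAF1 (-0.79), LYN (0.78), ST6GAL1 (-0.64), HLA-DRA (0.62), HLA-DRB1 (0.50), HLA-DPB1 (0.42) and CD27 (-0.39). HLA-DMB (-0.33), TRAF2 (-0.31), HLA-DMA (-0.15), HLA-DPA1 (-0.09) and CIITA (-0.08) were closer to 0.

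Of 28 other surface targets of antibodies or engineered T cells, 27 were tested and 2 rose in MCL against the other pathologies, where 4.46% of all genes were called, with a median difference of 0.37. ROR1, an orphan receptor tyrosine kinase targeted by conjugates, rose by 3.55 ± 0.78 (limma adjusted p = 0.0054), and by 3.79 within the first class (0.0060). Yet the line highest in ROR1 was NU-DUL-1, an ABC DLBCL line of the second class, at 134 RPM. In MCL ROR1 ran over 0.137 (JVM2) to 89.0 RPM (HBL-2). SDC1 (CD138), a heparan sulphate proteoglycan of plasma cells, rose by 3.09 ± 0.79 (limma adjusted p = 0.018), and by 3.29 within the first class (0.0042). The line highest in SDC1 was DOHH-2, a GCB DLBCL line of the second class, at 337 RPM. In MCL SDC1 ran over 0.0782 (REC-1) to 104 RPM (GRANTA519). Of 4 plasma cell markers tested (SDC1, PRDM1, XBP1 and TNFRSF17), SDC1 was the 1 called in this comparison. FCRL5, an Fc receptor-like protein targeted in myeloma, was at 3.09 ± 0.94 and just missed the threshold (limma adjusted p = 0.052), while within the first class it rose by 3.93 (0.0041). In the same comparison limma called 0 of 4 complement regulators (CD46, CD55, CD59 and CR2), with 0 at an unadjusted p under 0.05. It called 0 of 9 tested genes of the MS4A and SIGLEC families, with 1 under an unadjusted 0.05. Against GCB DLBCL alone 23.7% of all genes were called. There limma called 6 of the 27 other targets, 1 of the 4 complement regulators and 1 of the 9 family genes. CD55, which limits complement on the cell surface, rose by 1.90 ± 0.53 (limma adjusted p = 0.011) and MS4A4A, a relative of MS4A1, by 0.79 ± 0.29 (0.046). Neither passed within the first class (0.053 and 0.20). The 6 other targets were CD5, FCER2, ROR1, TNFRSF13B, FCRL5 and SDC1. Of these, ROR1 (4.21, limma adjusted p = 0.017), TNFRSF13B (5.48, 0.012) and FCRL5 (4.53, 0.010) also passed within the first class, where 3.41% of genes were called. CD5, FCER2 and SDC1 did not (0.14, 0.074 and 0.053).

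The genes whose values were most like each antigen over the 25 first-class lines, out of 9325 genes with a mean of at least 8, were mostly not other surface antigens. For MS4A1 they were CXXC5, GRK3 and PLEK (r of 0.77, 0.73 and 0.73), and for CD22 PLEKHF2, NCF1B and TMC8 (0.80, 0.76 and 0.74). For CD52 TMEM60 led (0.76), followed by the unnamed transcripts RP11-43F13.1 and AC091729.9 (0.74 each). For CD70 they were LAPTM4A, THAP2 and MAT2B (0.82, 0.80 and 0.78), and for CD24 AMER1, HNRNPA2B1 and RNF40 (0.74, 0.74 and 0.73). For TNFRSF8 they were LACTB, COMMD1 and TMX1 (0.77, 0.75 and 0.74). For CD74 they were PIM3, HLA-DPB1 and HLA-DPA1 (0.76, 0.74 and 0.73), so that 2 of its 3 leading genes were HLA class II genes. The highest of 9325 values from 25 points are high by selection, and no relation between the genes is drawn from them.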

How the data were processed

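The authors deposited 1 table of variance-stabilised read counts in log2 units for 34 libraries. The submitters' processing notes name STAR 2.5.3a, R 3.6.1, DESeq2 1.26.0 and GRCh38, without roles. The read counter, annotation, gene filter and strand setting are not given in the sources used here. Per the labels' protocols, the sequencing was spread over several time points. The titles mark 30 of the 34 libraries as re-analysed from other records. The 4 without that mark were HBL-2, MAVER-1 and UPN1 of MCL and Daudi of BL, so the mark and pathology are partly confounded.

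From the table, whole reads were recovered by inverting the transform: 100% of values in every library were whole within a tolerance of 0.05. Totals ranged from 2.55 to 165 M reads, with 1 read at 4.70 to 5.63 on the log2 scale, and 3 reads, the limit a count of 0 allows, at 0.0182 to 1.18 RPM. A gene entered the tests if 3 lines or more were over 1 log2 unit above the table's minimum; 22167 genes did, all 7 antigens included. limma 3.58.1 in R 4.3.3 fitted 1 mean per pathology over all 34 lines, and 7 contrasts and an F test were adjusted by Benjamini-Hochberg over all genes, with a threshold of 0.05. "The other pathologies" means the unweighted mean of 3 pathology means. Both scripts were tested on simulated data. Python 3.11.15 gave the exact permutation test. Gene positions, given for GRCh38.p14, and sequences come from RefSeq. Of the 31975 deposited gene identifiers, 31574 were found in the reference gene names. MS4A1 and CD70 had no promoter entry. No 2 libraries were identical: the highest correlation between 2 libraries was 0.98, for SP-49 and SP-53. Whether any lines share an origin was not tested.

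The antigens, lists and tests were chosen with earlier results of these data known. Genes named are the antigens, their 17 partners, the 3 genes most like each antigen, and list genes called in MCL against the other pathologies. Also named, after their values were seen, were MIF, CD55, MS4A4A, CD5, FCER2 and TNFRSF13B against GCB DLBCL, FCRL5 and marker genes. One further B-cell marker is not reported here. Alternatives were another filter and none, median centring, quantile normalization, log2 of RPM plus 1, library class, depth, re-analysed lines, other definitions of lacking, and leaving out each line.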

Additional observations from a re-analysis of the deposited data

How the results depend on the processing

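No paired analysis was possible, because the pathologies hold different cell lines and the labels pair none of them. Each line is a single library, and depth limits low genes most in the 8 libraries under 10 M reads. CD70 in MCL against the other pathologies, 1.76 as reported, did not pass with median centring (1.501), first-class libraries only (1.46), library class as a covariate (1.48) or without libraries under 10 M reads (1.64), and lay at 1.44 to 2.05 with single lines left out. CD70 against GCB DLBCL did not pass in the first class (1.62), with the covariate (1.32) or without shallow libraries (1.62). CD22 against GCB DLBCL did not pass in these 3 settings (-1.57, -1.63 and -1.57) or in re-analysed lines only (-1.57), and lay at -1.81 to -1.35 with single lines left out, not passing without WSU-DLCL2, Jeko-1, Mino or Z-138. CD70 against ABC DLBCL passed with log2 of RPM plus 1 (2.503, adjusted p = 0.040), in re-analysed lines (3.07, 0.0099) and without HBL-1, HBL-2 or UPN1. CD22 gained calls: its F statistic, 4.48 as reported (limma adjusted p = 0.060), passed with median centring (5.42), quantile normalization (5.08) and log2 of RPM plus 1 (5.62), and without Pfeiffer, Toledo, GRANTA519 or SP-53. Of 49 differences of single antigens, 10 changed sign under another setting and 13 with 1 line left out, none of them past the threshold. The cause of these changes was not tested.

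Fewer than 10 reads as the definition of lacking gave 0 lines for CD24 and 10 for TNFRSF8, and under 5 RPM gave 2 for CD52, 4 for CD24 and 31 for TNFRSF8; within 1 log2 unit of the lowest value it was 0 for CD24.

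Calls over all genes, in order of setting, were as follows. Without a filter BL against GCB DLBCL gave 55. The stricter filter gave 2772 for MCL against GCB DLBCL, 100 for MCL against ABC DLBCL, 10 for BL against GCB DLBCL and 1828 for F. Median centring, which moved the median difference to -0.28, gave 1624 for MCL against the other pathologies, 527 higher and 1097 lower, against 798 and 191. Quantile normalization gave 75 for BL against GCB DLBCL and 49 for BL against ABC DLBCL. Log2 of RPM plus 1 gave 169 for MCL against BL and 1908 for F. The first class gave 628 for MCL against GCB DLBCL, 401 for MCL against BL, 58 for ABC against GCB DLBCL, 121 for BL against ABC DLBCL and 785 for F. The covariate gave 522, 26, 11 and 589 for MCL against GCB, ABC against GCB, BL against GCB DLBCL and F. Without shallow libraries MCL against GCB DLBCL gave 592, ABC against GCB DLBCL 49, BL against GCB DLBCL 16, BL against ABC DLBCL 79 and F 700. Re-analysed lines gave 552 for MCL against the other pathologies, 40 for MCL against BL, 96 for ABC against GCB DLBCL and 7 for BL against ABC DLBCL. With single lines left out, counts ran from 618 (Daudi) to 1116 (Toledo) for MCL against the other pathologies, 4124 to 6128 against GCB DLBCL, 96 (OCI-Ly10) to 243 (JVM2) against ABC DLBCL and 52 (Daudi) to 357 (JVM2) against BL. They ran from 25 (OCI-Ly10) to 431 (NU-DUL-1) for ABC against GCB DLBCL, 20 (HT) to 45 (SU-DHL-5) for BL against GCB DLBCL, 7 (Daudi) to 55 (SU-DHL-8) for BL against ABC DLBCL and 1933 (WSU-DLCL2) to 3788 (Toledo) for F.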
